A study of Mus musculus with 40 samples.

Results

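The microRNAs mmu-miR-221-3p, mmu-miR-222-3p, mmu-miR-126a-3p and mmu-miR-126a-5p were followed in the blood of ageing mice. They were taken by name from the raw count table and make up 4 of its 1915 microRNA rows, 1016 of which held any read. Small RNA was sequenced from total blood of mice aged 12 months, 13.5 months, 15 months or 16.5 months, with 10 libraries at each age and 40 in all, to follow circulating microRNAs in animals whose memory was also tested. The mice were male, of the strain that the study spells C57B/6J, were kept singly and were bled repeatedly from the orbital sinus, and none of the 40 libraries is labelled with a drug or an allele. At the later ages the study bled mice after a water maze memory test and also kept mice without training, and the labels do not say which library is which, so age and the rounds of testing cannot be told apart. The study followed the same mice, whereas the libraries were tested as independent. Libraries are numbered here in column order within an age, and a given library number stands for the same number in the column names at all 4 ages. Whether that number names a mouse is not stated in the sources used here, and fits with it as a block are given where they change a call.

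MicroRNAs are cut from the 2 arms of a folded precursor, the hairpin, and the products are named 5p and 3p after the arm. Bases 2 to 8 of the mature strand, the seed, pair with target messenger RNAs, so microRNAs with 1 seed share many predicted targets. miR-221 and miR-222 come from a joint cluster and are known in vascular and blood-forming cells as regulators of Kit, the stem cell factor receptor, and of Cdkn1b, a cell cycle inhibitor. miR-126 lies within Egfl7, a gene of endothelial cells, and is known for its part in vessel growth through Spred1, a brake on growth factor signalling, and for holding blood stem cells in a resting state.

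The mature sequences show which of the 4 can share targets, and are given 5′ to 3′ with the seed in capitals, from RefSeq on GRCm38.p6, which had entries for 3 of the 4 (all but miR-126a-5p).
miR-221-3p: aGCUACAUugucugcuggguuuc
miR-222-3p: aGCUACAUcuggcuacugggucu
miR-126a-3p: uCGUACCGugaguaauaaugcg
The first 8 bases of miR-221-3p and miR-222-3p, seed included, are the same, and over their 23 positions 11 are identical. Among the 1679 mature entries searched, the only other one with that seed was miR-1928, which had 0 reads in the 40 libraries. No other entry had the seed of miR-126a-3p.

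The miR-221-3p sequence lies at chrX:19146307-19146329 and the miR-222-3p sequence at chrX:19146901-19146923, both on the minus strand. Their hairpins are 504 bases apart and overlap no other gene of the GENCODE M21 annotation of the same assembly. The miR-126a-3p sequence lies at chr2:26591402-26591423 on the plus strand. Its hairpin falls in an intron in 8 of the 9 Egfl7 transcripts that span it and in an exon of the other, a retained-intron transcript, and lies within the span of Gm20532. Mir126b is annotated on the opposite strand over the same bases. Because both miR-126a products come from it, the Mir126a hairpin is shown with the 3p product in capitals.
Mir126a: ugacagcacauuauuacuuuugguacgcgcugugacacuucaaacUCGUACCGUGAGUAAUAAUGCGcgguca

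The libraries held between 2469196 and 21386209 counts, most of them miR-486, a red cell microRNA whose reads are entered in 2 equal rows. Outside miR-486 the median library held 855061 counts at 12 months, 698499 at 13.5 months, 267135 at 15 months and 597338 at 16.5 months, so that the 15-month values rest on the fewest reads. The 4 shallowest libraries were libraries 3 and 4 at 15 months and libraries 6 and 7 at 16.5 months. Library 7 at 16.5 months also stood apart by its connectivity, a Z-score of its mean correlation with the others (Z = -3.28). Blood markers were present throughout, and the summed level of 6 red cell microRNAs ranged from 261033 to 1709968 CPM (counts scaled to equal library size). Of the marker lists, 3 of 6 red cell, 1 of 4 platelet, 2 of 3 lymphoid, 2 of 4 myeloid and 1 of 2 smooth muscle microRNAs changed over age, against 39.1% of all 345 tested, and the liver marker was too low to test.

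Levels are given as log2 CPM after TMM scaling, with a prior of 2 reads, and a change was called where the edgeR quasi-likelihood test gave an adjusted p under 0.05 (Benjamini-Hochberg over every microRNA in the fit). Only miR-222-3p passed the study's filter of more than 100 reads in 50% of the libraries, which kept 105 microRNAs. The other 3 members were tested among the 345 microRNAs with more than 1 read in 50% of the libraries. In total blood, fewer cells of a type and less RNA per cell cannot be told apart.

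mmu-miR-222-3p was the most abundant of the 4 and was highest at 13.5 months and lower at both later ages. It held 13075 reads in all, with 27 to 1107 per library and a median of 301.5. At 12 months its lowest, median and highest levels were 4.28, 4.88 and 5.08 log2 CPM, and the mean was 4.83 ± 0.25 (SD, n = 10). At 13.5 months they were 4.30, 5.08 and 5.49, with a mean of 5.05 ± 0.34. The 13.5-month values thus reached above those of 12 months, with 5 of 10 libraries over the highest 12-month library. At 15 months the lowest, median and highest were 3.85, 4.57 and 4.74, with a mean of 4.44 ± 0.34. At 16.5 months they were 4.12, 4.61 and 5.12, with a mean of 4.61 ± 0.26. The 2 lowest libraries at 15 months, 3 and 4, were among the 4 shallowest, and the ranges of all 4 ages overlapped.

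Over age, miR-222-3p changed with an adjusted p of 0.000642, as did 61% of the 105 microRNAs. Between ages it was called in 3 of 6 comparisons. The difference between 15 and 13.5 months was a log2 fold change of -0.60 (SE 0.13, adjusted p = 0.000227), with 10 of 10 later libraries under the 13.5-month mean, in a comparison that called 47.6% of microRNAs. Between 16.5 and 13.5 months it was -0.44 (SE 0.13, adjusted p = 0.00484, 9 of 10 libraries), where 40% were called. Between 15 and 12 months it was -0.35 (SE 0.13, adjusted p = 0.0427, 10 of 10 libraries), where 23.8% were called. miR-222-3p was not called between 13.5 and 12 months (29.5% called), 16.5 and 12 months (23.8%) or 16.5 and 15 months (28.6%). The call between 15 and 12 months was lost in 29 of 40 fits that left out 1 library, with adjusted p up to 0.174, and in 11 of 16 other settings. The difference between 16.5 and 13.5 months was not called with 3 factors of unwanted variation (adjusted p = 0.0756), without a filter (0.0950) or with library totals (0.1003).

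**Figure D1:**
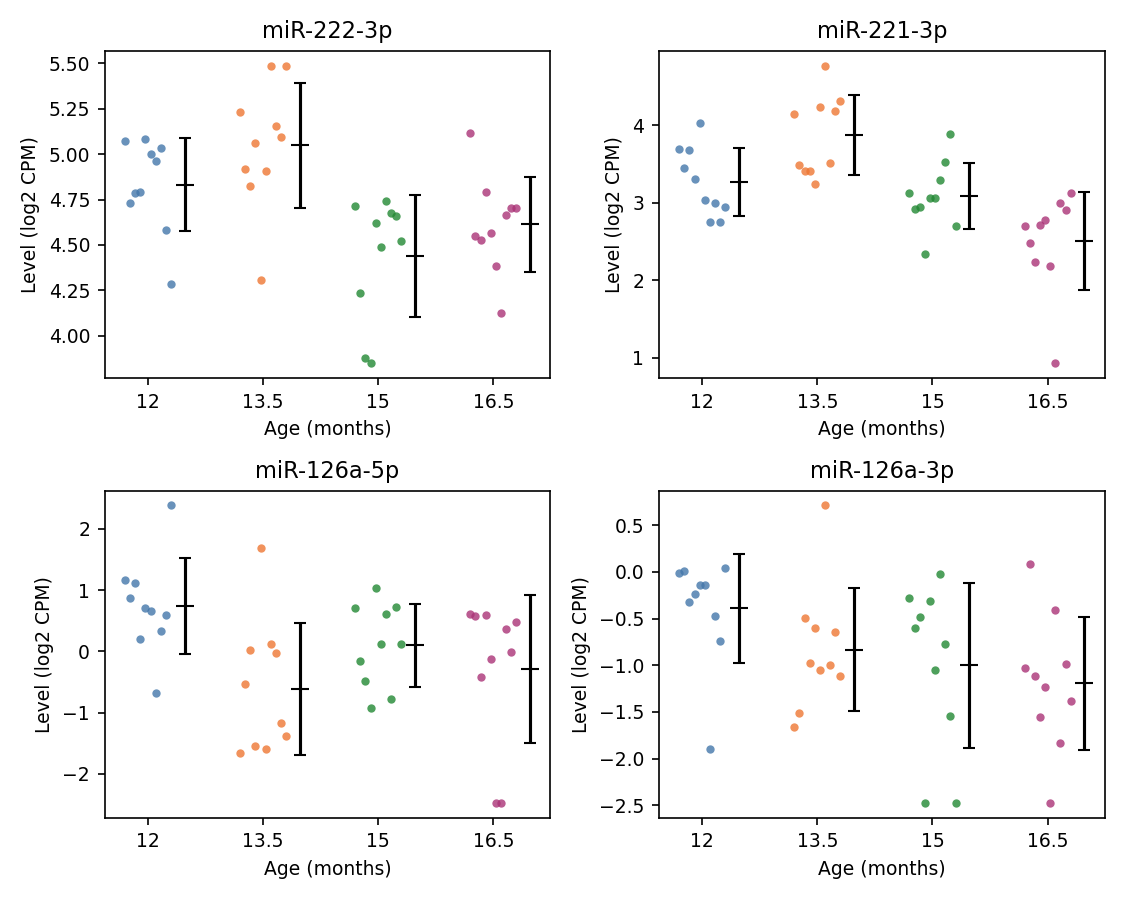
Level in log2 CPM (vertical axis, scaled per panel) of each of the 4 microRNAs against age in months. Each point is 1 of 10 libraries and the black bar is the mean ± SD. miR-221-3p at 16.5 months lies wholly under its 13.5-month range, which was not counted for microRNAs outside the 4. The lowest points of miR-126a are libraries with 0 reads.

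mmu-miR-221-3p, the partner of miR-222-3p with the same seed, rose from 12 to 13.5 months and was lower than at 13.5 months at both later ages. It held 4782 reads in all, and 19 libraries had more than 100, 1 short of the filter. At 12 months its lowest, median and highest levels were 2.75, 3.17 and 4.03 log2 CPM, with a mean of 3.27 ± 0.44 (SD, n = 10). At 13.5 months they were 3.25, 3.83 and 4.77, with a mean of 3.87 ± 0.52. Of the 13.5-month libraries, 5 were above every 12-month library. At 15 months the lowest, median and highest were 2.33, 3.06 and 3.89, with a mean of 3.09 ± 0.43, and no library had more than 89 reads. At 16.5 months they were 0.93, 2.71 and 3.13, with a mean of 2.51 ± 0.63. All 10 libraries at 16.5 months were under the lowest 13.5-month library, and 6 were under the lowest 12-month library. How many microRNAs outside the 4 members separated in this way was not counted. The lowest of all was library 7 at 16.5 months, the shallowest library, with 3 reads.

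The change of miR-221-3p over age had an adjusted p of 2.77e-05, and 39.1% of the 345 microRNAs were called. Among the 3 members tested at this filter, 2 changed over age (miR-221-3p and miR-126a-5p), and 6 of 18 comparisons between ages were called, of which 4 were of miR-221-3p. Of all 345 microRNAs, 11.3% to 27% were called in a pair of ages. From 12 to 13.5 months it rose by 0.64 on the log2 scale (SE 0.20, adjusted p = 0.0263, 9 of 10 libraries), in a comparison that called 15.7% of microRNAs. At 15 months it was at 0.570 of its 13.5-month level, a log2 fold change of -0.81 (SE 0.21, adjusted p = 0.00323, 9 of 10 libraries), where 27% were called. At 16.5 months it was at 0.399 of that level, or -1.32 (SE 0.21, adjusted p = 5.75e-06, 10 of 10 libraries), where 21.4% were called. Against 12 months the 16.5-month level differed by -0.68 (SE 0.21, adjusted p = 0.0271, 10 of 10 libraries), where 13.9% were called. Between 16.5 and 15 months the value was -0.51 (SE 0.22, adjusted p = 0.113), which was not called, although it was with 2 factors of unwanted variation (-0.50, adjusted p = 0.0296) and with 3 (-0.45, adjusted p = 0.0387), and it was 0.0633 with library totals (adjusted p = 0.914).

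The falls of miR-221-3p from 13.5 months were called in every fit without 1 library and in all 15 other settings. The rise at 13.5 months was not called without library 7 (adjusted p = 0.108) or library 10 (0.0511) of that age, with library totals (0.328), with no filter (0.132), or with the number in the column names as a block (0.0647). The difference between 16.5 and 12 months was not called without library 1 (0.0510) or library 5 (0.0572) at 12 months, without the 4 shallowest libraries (0.0821), with library totals (0.182), or with reads outside miR-486 thinned to 1 depth (0.303).

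Some blood cell markers differed between the same ages. Between 15 and 13.5 months 27% of the 345 microRNAs were called, and between 16.5 and 13.5 months 21.4%. The summed platelet level was 6773 to 10593 CPM at 13.5 months and 10244 to 12731 CPM at 16.5 months, and most of it was miR-191-5p. Of the 4 platelet markers tested, only miR-191-5p was called there (log2 fold change 0.37, edgeR adjusted p = 0.0120), while miR-484 was at -0.10, miR-24-3p at 0.20 and miR-223-3p at 0.34. The summed red cell level was 261033 to 529705 CPM at 13.5 months and 462755 to 1709968 CPM at 15 months, and most of it was miR-486a-5p. In that comparison the 6 red cell markers split, with miR-486a-5p (0.95) and miR-144-5p (1.23) called higher, miR-16-5p (-0.57) called lower, and miR-451a, miR-144-3p and miR-486a-3p not called. Of the 4 myeloid markers only miR-142a-3p was called. It was higher than at 13.5 months by 1.74 at 15 months (edgeR adjusted p = 3.9e-05) and by 1.23 at 16.5 months (0.00322). The others were at 0.21, 0.58 and -0.60 at 15 months, and at 0.34, 0.43 and 0.46 at 16.5 months. Also higher at 16.5 months were the lymphoid miR-342-3p (0.69, 0.00677) and the red cell miR-144-5p (1.55, 6.2e-05), with 0 of these lists called lower. The part of these markers in the differences of miR-221-3p and miR-222-3p was not tested.

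**Figure D2:**
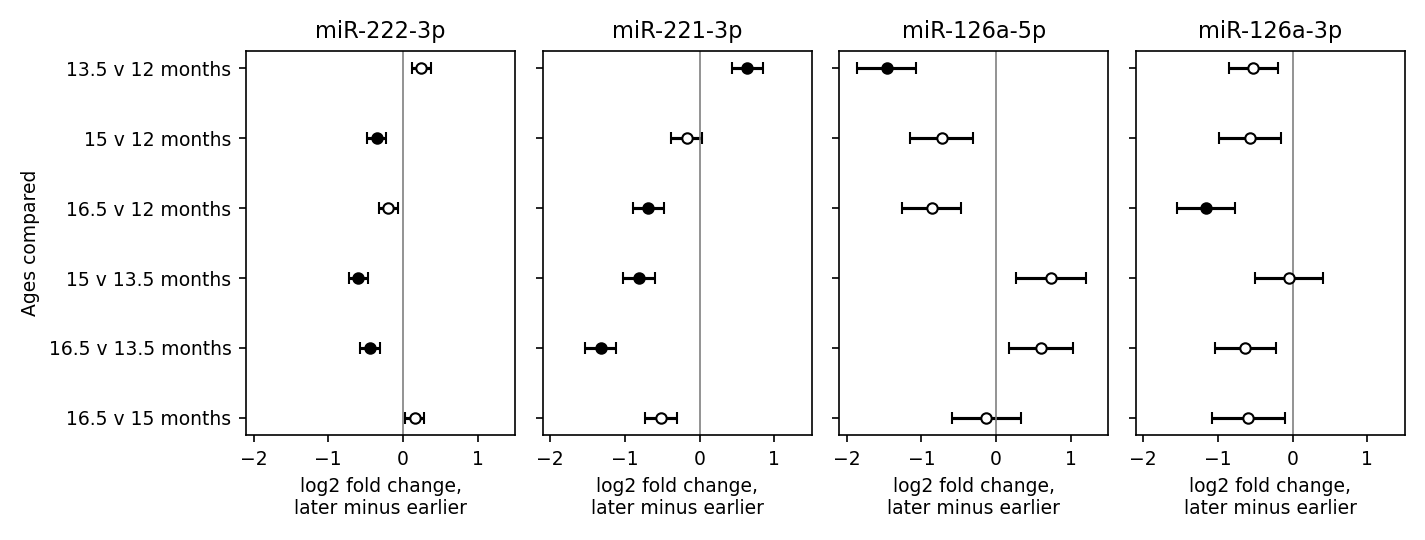
The log2 fold change (horizontal axis, later minus earlier age) of each microRNA in the 6 pairs of ages, with its standard error as a bar. Filled points were called at an adjusted p under 0.05. The 3 comparisons called for miR-222-3p and 3 of the 4 called for miR-221-3p lie under 0, and the other, 13.5 against 12 months, is at 0.64.

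The proportion of the 2 partners changed, with relatively more miR-222-3p at 16.5 months. The ratio was taken within each library, so it does not depend on how libraries are scaled, whereas its precision and, at low counts, its size depend on depth. miR-222-3p outnumbered miR-221-3p in all 40 libraries. Summed over 10 libraries there were 2.87 reads of miR-222-3p for each read of miR-221-3p at 12 months, 2.29 at 13.5 months, 2.54 at 15 months and 3.84 at 16.5 months. The log2 ratio averaged 1.58 ± 0.42 (SD, n = 10) at 12 months, 1.18 ± 0.36 at 13.5 months, 1.36 ± 0.32 at 15 months and 2.12 ± 0.45 at 16.5 months. Its range was 0.67 to 1.67 at 13.5 months and 1.59 to 3.12 at 16.5 months, so that the 2 ages overlapped only at their edges.

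The log2 ratio differed over age (two-sided permutation test with 100000 resamples, p = 3e-05, adjusted p = 0.00035 over the 14 comparisons of the 2 ratios examined). It was higher at 16.5 months than at 13.5 months by 0.93 (permutation test, adjusted p = 0.00035) and than at 15 months by 0.76 (adjusted p = 0.0007). In each, 10 of 10 libraries at 16.5 months were above the mean of the earlier age. The 15-month ratios reached 1.83, above the lowest 16.5-month ratio of 1.59. Against 12 months the difference was 0.54 (permutation test, adjusted p = 0.0393, 10 of 10 libraries). Between 13.5 and 12 months it was -0.40 (adjusted p = 0.0809), which was not called. The difference between 16.5 and 12 months was lost in 9 of 40 tests that left out 1 library, 6 of them 12-month libraries (numbers 1, 2, 3, 4, 5 and 10) and 3 of them 16.5-month libraries (1, 3 and 6), with adjusted p up to 0.0721. It was 0.40 without the 4 shallowest libraries (adjusted p = 0.0692), and with the number in the column names as a block its adjusted p was 0.0547. With all libraries thinned to the depth of the shallowest, the ratio was not called over age (adjusted p = 0.417), and the difference between 16.5 and 13.5 months was 0.81 (adjusted p = 0.166), that to 15 months 0.44 (0.420) and that to 12 months 0.31 (0.635).

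**Figure D3:**
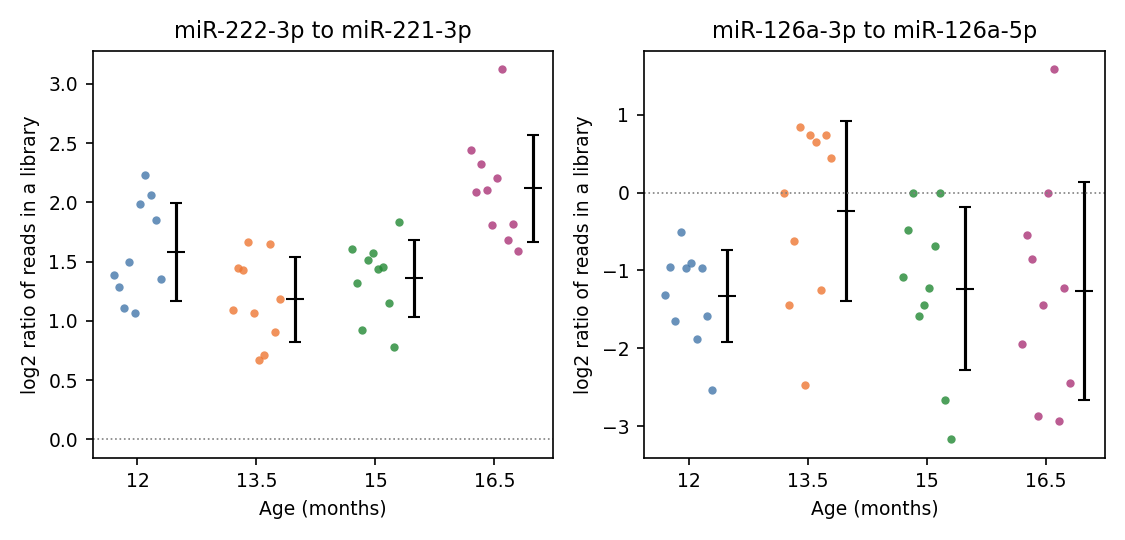
The log2 ratio of reads within a library (vertical axis, 0.5 added to both counts) of miR-222-3p to miR-221-3p and of miR-126a-3p to miR-126a-5p against age in months. Points are 10 libraries per age, black bars the mean ± SD, and the dotted line marks equal counts. The mean of the first ratio is 2.12 at 16.5 months against 1.18 to 1.58 at the other ages.

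Across the 40 libraries the levels of miR-221-3p and miR-222-3p had a Spearman rho of 0.654, and within the ages rho lay between 0.552 and 0.806 (n = 10 each). These values are descriptions of libraries that share a scaling. Of the 101 other tested microRNAs counted once, those most like miR-222-3p by Spearman rho over 40 libraries were miR-17-3p (0.681) and miR-93-5p (0.658), both products of clusters of the miR-17 family.

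**Figure D4:**
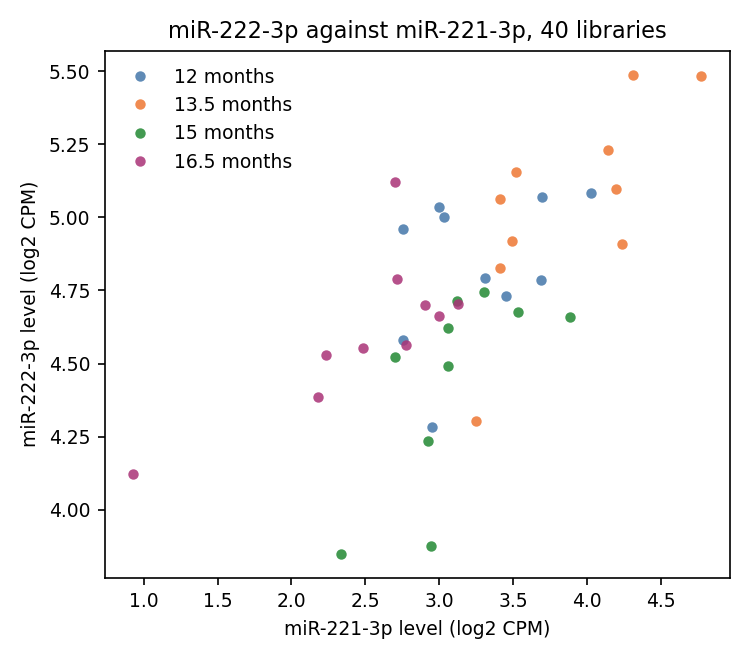
Level of miR-222-3p (vertical axis) against that of miR-221-3p (horizontal axis), both in log2 CPM, with 1 point per library and a colour per age. The 13.5-month libraries lie mostly at the upper right and the 16.5-month libraries to the left, and the rho over 40 libraries is 0.654.

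The other arms of the same hairpins were rare but moved differently from each other. miR-221-5p held 445 reads and miR-222-5p 535, which is 8.51% and 3.93% of the reads of their hairpins, and the 3p product was higher in all 40 libraries for both. Between 13.5 and 16.5 months miR-221-5p fell by 0.80 on the log2 scale (SE 0.26, edgeR adjusted p = 0.0219), as its 3p partner did. miR-222-5p rose by 0.87 between the same ages (SE 0.25, edgeR adjusted p = 0.00893), while miR-222-3p fell by 0.44. The median library had 11 reads of miR-222-5p at 13.5 months and 19 at 16.5 months. The 5p share of the Mir222 hairpin was 2.65% at 13.5 months and 6.12% at 16.5 months, and that of Mir221 was 8.07% and 10.5%. Whether the 2 arms of a hairpin changed differently was not tested.

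miR-126a was scarce in these libraries. miR-126a-5p held 550 reads and miR-126a-3p 209, which is 0.00208% and 0.000792% of the counts outside miR-486. The 5p product made up 72.5% of the reads of the hairpin, and the 3p product was higher in only 6 of 40 libraries. The products of the antisense Mir126b were nearly absent, with 2 reads of miR-126b-3p and 0 of miR-126b-5p.

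**Figure D5:**
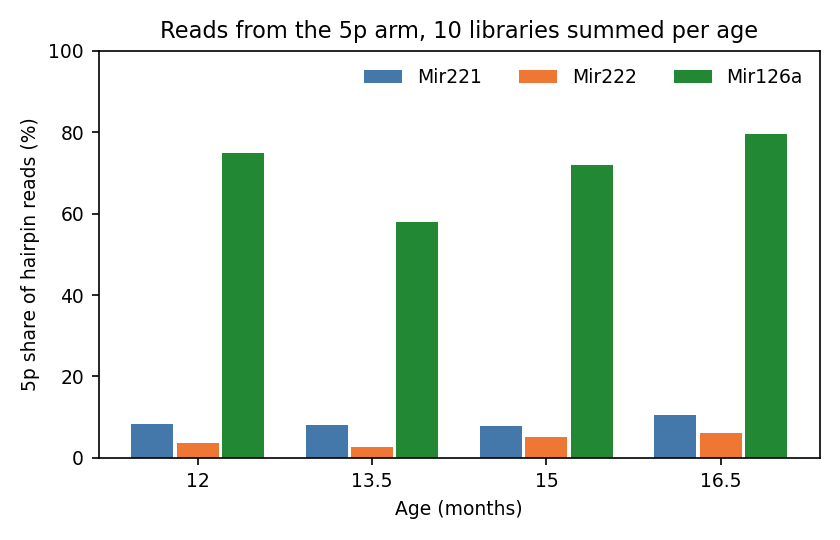
Share of the reads of each hairpin that came from its 5p arm in percent (vertical axis), summed over 10 libraries at each age in months. The share stays at or under 10.5% for Mir221 and Mir222 and lies between 57.9% and 79.5% for Mir126a.

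mmu-miR-126a-5p was highest at 12 months and lower at 13.5 months, with no called difference at the 2 later ages. At 12 months its lowest, median and highest levels were -0.68, 0.68 and 2.38 log2 CPM, from 5, 23.5 and 118 reads, with a mean of 0.74 ± 0.79 (SD, n = 10). At 13.5 months they were -1.67, -0.85 and 1.69, from 1, 7 and 19 reads, with a mean of -0.61 ± 1.08. Of the 13.5-month libraries, 5 were under the lowest 12-month library, while library 5 stood above the others of its age. At 15 months the levels ran from -0.92 to 1.04 with a median of 0.12, and the mean was 0.10 ± 0.68. At 16.5 months they ran from -2.48 to 0.61 with a median of 0.17, and the mean was -0.29 ± 1.20. The 2 lowest 16.5-month libraries, 6 and 7, held 0 reads, which allows up to 3 reads of each. That is 0.541 and 1.215 CPM of their unscaled totals, and such limits cover counting error only. On the TMM scale of the levels the limits are higher. There 3 reads of miR-221-3p in library 7 were 1.72 CPM, above the highest miR-126a-5p level of 16.5 months (1.35 CPM).

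Over age, miR-126a-5p had an edgeR adjusted p of 0.0189. Between 12 and 13.5 months it fell by 1.46 on the log2 scale, to 0.363 of its level (SE 0.40, adjusted p = 0.00742, 9 of 10 libraries). That comparison called 15.7% of the 345 microRNAs. Between 12 and 16.5 months the value was -0.86 (SE 0.39, adjusted p = 0.142), which was not called. Some markers of other cell types fell between 12 and 13.5 months too. The log2 fold changes were -1.74 for miR-143-3p of smooth muscle (edgeR adjusted p = 0.0120), -1.69 for the myeloid miR-142a-3p (6.5e-05) and -1.61 for the red cell miR-144-5p (5.5e-05). Of the same lists miR-145a-5p (0.12), miR-146a-5p (0.24), miR-16-5p (0.04) and miR-486a-5p (-0.01) were not called. Nor were miR-21a-5p (-0.56), miR-451a (-0.88), miR-144-3p (-0.93) and miR-486a-3p (-0.26). The part of these markers in the fall of miR-126a-5p was not tested. On the marker lists, 1 of 2 smooth muscle, 2 of 4 myeloid, 1 of 4 platelet, 1 of 6 red cell and 0 of 3 lymphoid markers were called lower and 0 higher in that comparison. Of all 345 microRNAs, 34 were called lower and 20 higher there. The platelet call and 1 of the 2 myeloid calls are the same microRNA, miR-223-3p, which is on both lists. Library 10 at 12 months held the highest count of miR-126a-5p, 118 reads against 45 in the next library. The same library held 1998 reads of miR-143-3p, against 160 in the next and a median of 39.5. The other smooth muscle marker, miR-145a-5p, hardly stood out there, with 11 reads against 10 in the next. Library 10 held 1130023 counts outside miR-486, where the median 12-month library held 855061. The summed smooth muscle level had a median of 4.67 CPM at 12 months and 3.42 CPM at 13.5 months. The fall of miR-143-3p was not refitted without library 10 at 12 months. Without this library the change of miR-126a-5p over age was not called (adjusted p = 0.0910), and the difference between 13.5 and 12 months was -1.11 (adjusted p = 0.0393). The fall at 13.5 months was not called with 3 factors of unwanted variation (log2 fold change -0.36, adjusted p = 0.597), with library totals (adjusted p = 0.0582) or in a fit of only the 2 ages (adjusted p = 0.0526). The change over age was not called with 3 factors (0.123) or with linear age (0.222).

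mmu-miR-126a-3p had its highest mean at 12 months and its lowest at 16.5 months. At 12 months its lowest, median and highest levels were -1.90, -0.19 and 0.05 log2 CPM, from 1, 11 and 20 reads, and the mean was -0.39 ± 0.58 (SD, n = 10). At 13.5 months they were -1.67, -0.99 and 0.71, with a mean of -0.83 ± 0.66. At 15 months the levels ran from -2.48 to -0.02 with a median of -0.69 and a mean of -1.002 ± 0.89. At 16.5 months they ran from -2.48 to 0.08 with a median of -1.17 and a mean of -1.19 ± 0.71. All ages overlapped, and no library at 15 or 16.5 months held more than 6 reads. Libraries 4 and 10 at 15 months and library 6 at 16.5 months held 0 reads, which allows up to between 0.442 and 0.541 CPM of their unscaled totals. On the TMM scale of the levels these limits are higher. There 1 read of miR-126a-5p in library 4 at 15 months was 0.347 CPM, and 4 reads in library 10 were 0.903 CPM.

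The change of miR-126a-3p over age did not pass (edgeR adjusted p = 0.0740). From 12 to 16.5 months it fell by 1.16 on the log2 scale (SE 0.38, adjusted p = 0.0354, 9 of 10 libraries), where 13.9% of the 345 microRNAs were called. This call was lost in 12 of 40 fits without 1 library, with adjusted p up to 0.0777 (without library 4 at 16.5 months), among them the fit without library 10 at 12 months (0.0645). It was also lost in 6 of 14 other settings, with adjusted p up to 0.0844, among them the block by the number in the column names (0.0601). The change over age was called without library 7 at 12 months (0.0290), library 7 at 13.5 months (0.0194) or library 2 at 16.5 months (0.0211), and with limma voom (0.00779), library totals (0.0221) or linear age (0.0394).

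The balance of the 2 arms of Mir126a was compared within libraries. The log2 ratio of 3p to 5p averaged -1.33 ± 0.59 (SD, n = 10) at 12 months, -0.24 ± 1.16 at 13.5 months, -1.23 ± 1.05 at 15 months and -1.27 ± 1.401 at 16.5 months. The 3p product was higher in 5 of 10 libraries at 13.5 months and in 1 of the 30 others. Over age the ratio did not pass (permutation test, adjusted p = 0.147). The difference between 13.5 and 12 months was 1.09 (permutation test, adjusted p = 0.0489, 8 of 10 libraries), and it was lost in 20 of 40 tests without 1 library, with 0.1 added to both counts (0.0526), with the block by the number in the column names (0.126), and at equal depth, where it was 0.10 (0.903). Only 7 libraries held at least 10 reads of both arms, and 6 of them were at 12 months.

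Of 20 other vascular and stem cell microRNAs listed beside these, 19 were in the table and all 19 could be tested, and 9 of them changed over age, where 39.1% of all tested did. The list shares miR-143-3p, miR-145a-5p and miR-155-5p with the marker lists. Between 16.5 and 13.5 months, where 21.4% of all tested were called, 4 of the 19 were lower and 0 higher. Their median log2 fold change was -0.27 against 0.01 over all tested microRNAs. Between 15 and 13.5 months, where 27% of all tested were called, 4 were lower and 0 higher (median -0.37 against -0.01). Between 15 and 12 months, where 11.3% of all tested were called, 3 were lower and 0 higher (-0.24 against -0.07). Between 16.5 and 12 months (13.9% called) 4 were lower and 2 higher (-0.20 against -0.07). Between 13.5 and 12 months (15.7% called) 1 was lower and 1 higher (0.18 against -0.05). Between 16.5 and 15 months (12.5% called) 0 were lower and 2 higher (-0.04 against -0.0023).

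Ranked by p over age, the first 3 of the list were miR-130a-3p, miR-100-5p and miR-17-5p. miR-130a-3p, known from vessel growth and blood progenitors, rose by 0.55 from 12 to 13.5 months (SE 0.11, edgeR adjusted p = 0.000176). It was also higher at 16.5 months than at 12 months (0.38, adjusted p = 0.0147) and than at 15 months (0.35, adjusted p = 0.0313), where the values of miR-221-3p were -0.68 and -0.51. Between 15 and 13.5 months miR-130a-3p was lower (-0.51, edgeR adjusted p = 0.000396), as was miR-221-3p (-0.81). miR-100-5p, a relative of miR-99 in stem cells, was lower at 16.5 than at 12 months by a log2 fold change of -2.76 (SE 0.63, edgeR adjusted p = 0.00432). miR-17-5p, of the miR-17 cluster, was lower at 15 than at 12 months by -1.11 (SE 0.25, edgeR adjusted p = 0.00206).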

How the data were processed

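Per the labels, small RNA libraries were made from total mouse blood with the TruSeq Small RNA kit and read single-end. The authors removed adapters, mapped reads of at least 18 nt to mm10, counted them on the mature products of miRBase 21 with miRDeep2, allowing no mismatch and summing products of several loci, and deposited the raw counts. FastQC 0.11.5 is named in the submitters' processing notes. Near-identical products can share reads. The normalized table was not used. Counts per library ranged from 2469196 to 21386209. Groups were the ages in the labels, and no column was without an age. The labels do not say which libraries share an animal, so p-values measure the spread between libraries, part of which may be technical.

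Counts were tested with edgeR 4.0.16 (R 4.3.3, TMM, glmQLFit, glmQLFTest) over age and in 6 pairs of ages, all 40 libraries in 1 fit, after keeping microRNAs with more than 100 reads, or for the rarer members more than 1 read, in 20 libraries. A standard error is the size of the fold change (log2) divided by the root of its F statistic. Ratios within libraries were compared by permutation. Fits and permutation tests were tested on simulated data. No 2 libraries of an age were duplicates (180 pairs, smallest chi-square per degree of freedom 7.33). The members and lists were chosen with earlier results of these data known. The text names the members, the other products of their hairpins, the 2 microRNAs most like a member that passed the main filter, and the 3 of the vascular and stem cell list with the lowest p.

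Alternatives were DESeq2 1.42.0, limma 3.58.1 with voom quality weights, median-ratio factors, library totals, removal of the miR-486 rows, lower filters, RUVs-type factors of unwanted variation (1 to 3), removal of libraries beyond a connectivity Z of 2.5, only the ages compared, linear age, equal depth, and each library left out. For the ratios they were 0.1 or 1 added to both counts, at least 10 reads of both, and a rank test.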

Additional observations from a re-analysis of the deposited data

Results flagged for a closer look

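Within ages, 24 sets of 10 libraries (the 4 microRNAs and both ratios at 4 ages) were searched for a library far from the others, where chance gives about 1 in 20, and 4 had one. miR-221-3p in library 7 at 16.5 months was at 0.928 log2 CPM from 3 reads, with the next library at 2.18. miR-126a-3p in library 7 at 12 months was at -1.9 log2 CPM from 1 read, with the next at -0.739. miR-126a-3p in library 7 at 13.5 months was at 0.713 log2 CPM from 16 reads, with the next at -0.488. miR-126a-5p in library 5 at 13.5 months was at 1.69 log2 CPM from 19 reads, with the next at 0.126. Library 7 carries the same number in the column names at all ages, and 3 of the 4 values are from it.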

How the results depend on the processing

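Of the members that passed each filter, 3 of 4 were called over age both with more than 1 read and with no filter, against 1 of 1 at more than 100 reads. Of all microRNAs, 39.1% of 345 were called with more than 1 read, 113 of 1016 with no filter and 61% of 105 at more than 100 reads. With linear age 0 of 1 was called, where 21 of 105 were (edgeR, miR-222-3p adjusted p = 0.0704, though 1 of 1 had an unadjusted p under 0.05). Between ages 8 and 5 comparisons of 4 members were called at the lower filters, against 3 of the 1 member at the main filter. With no filter 21 to 69 of 1016 microRNAs were called per comparison. With 3 factors of unwanted variation 1 comparison of miR-222-3p was called. Among the 3 rarer members, 1 was called over age with 3 factors and 1 at equal depth, where only miR-221-3p could be tested, and 3 comparisons between ages were called there, against 6. Leaving out 1 library gave 1 to 3 rarer members called over age (1 without library 10 at 12 months) and 4 to 8 comparisons, and 2 to 3 for miR-222-3p. With library totals, which shift the median of the 345 microRNAs by 0.58 between 15 and 16.5 months, miR-221-3p was higher at 16.5 months by 0.0633 rather than lower.

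The ratio of miR-222-3p to miR-221-3p over age had an adjusted p of 0.417 at equal depth, and of 0.00028 to 0.00121 without any 1 library. That of the miR-126a arms was 0.0493 without library 7 at 16.5 months, the one beyond the connectivity limit, 0.0293 without the 4 shallowest libraries, and 0.0453 to 0.277 without any 1 library. It was not run with 10 reads of both arms, which 0 libraries at 15 and 16.5 months had. Equal depth left miR-126a-3p and miR-126a-5p under the filter. The cause of these differences was not tested.

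The block by the replicate numbers of the labels was not run, since the columns do not carry them. A paired fit was run with the number that the column names hold, 10 in all and each once per age, which is not said to be an animal. Deviations of libraries with the same number had a correlation of -0.867 to 0.86, with 24 of 60 pairs above 0.1 and a mean of -0.00512, against 0.00192 for other pairs. With that number as a replicate block, adjusted p was 0.0647 for miR-221-3p at 13.5 against 12 months, 0.0601 for miR-126a-3p at 16.5 against 12 months, 0.0547 for the miR-222-3p to miR-221-3p ratio at 16.5 against 12 months and 0.126 for the ratio of the miR-126a arms at 13.5 against 12 months, and no other call of the 4 microRNAs or 2 ratios changed. This block, the removal of the 4 shallowest libraries and that of the 3 libraries of 15 months with the letter B in their column names, where the other 7 have another letter, were added after seeing the data.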

Other observations

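The 5p products of the Mir222 and Mir221 hairpins are other reads than those behind the 3p ratio. Summed over 10 libraries there were 0.710 reads of miR-222-5p for each read of miR-221-5p at 13.5 months, 1.19 at 12 months, 1.64 at 15 months and 2.14 at 16.5 months. The log2 ratio (0.5 added to both counts) averaged -0.54 ± 0.49 (SD, n = 10) at 13.5 months and 1.14 ± 0.74 at 16.5 months. At 13.5 months miR-222-5p was the higher one in 0 of 10 libraries, and at 16.5 months in 9 of 10. These values were looked at after the 3p ratio was known, rest on medians of 3 to 19 reads per library, and were not tested.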
